A study of Mus musculus with 24 samples.

Results

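The CC chemokines described here were Ccl2, Ccl3, Ccl4, Ccl5, Ccl6, Ccl7, Ccl9, Ccl12, Ccl17 and Ccl22. These 10 genes were picked by symbol out of the 23420 in the count tables, with no measured value used. All 10 symbols were listed for every one of the 24 libraries, some with 0 counts. They were read in bone marrow-derived macrophages (BMDMs), which are macrophages grown from marrow with M-CSF, and in Th2 cells, which are CD4 T cells polarised in culture with IL-4. All mice were C57BL/6 and 8 to 16 weeks old. TDG iKO mice carried Tdg fl/fl, a Rosa26-H2B-EGFP/GPI-mCherry LSL reporter and a tamoxifen-inducible Cre, and TET iTKO mice carried Tet1, Tet2 and Tet3 fl/fl, a Rosa26-YFP LSL reporter and the same Cre. Tamoxifen (2 mg on each of 5 days) was given to Cre-carrying and control (WT) animals alike. BMDMs were made in 2 cohorts, one of TDG iKO with its WT (Tdg cohort) and one of TET iTKO with its WT (Tet cohort), each with 2 libraries per genotype left unstimulated (0 h) and 2 after 6 h with 10 ng/ml of Kdo2-lipid A (KLA), a Toll-like receptor 4 agonist. Th2 cells were 4 TDG iKO and 4 WT libraries, made after 2 days of stimulation with anti-CD3 and anti-CD28 and a further expansion in IL-2. No source used here states that replicates of a group came from separate animals, so p-values measure only the spread between these libraries.

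CC chemokines are small secreted proteins that bind seven-pass receptors on leukocytes and draw those cells toward the source. Ccl2, Ccl7 and Ccl12 act through CCR2 and call monocytes out of bone marrow and into inflamed tissue, Ccl3, Ccl4 and Ccl5 draw monocytes and T cells (Ccl3 and Ccl5 in part through CCR1), and Ccl6 and Ccl9 are rodent ligands of CCR1. Ccl17 and Ccl22 bind CCR4, a receptor of Th2 and regulatory T cells, and are products of dendritic cells and of macrophages exposed to IL-4. Macrophages transcribe many of these genes within hours of Toll-like receptor signalling, in large part through NF-κB. TET enzymes oxidise 5-methylcytosine and TDG excises the most oxidised forms, so both enzymes act on the methylation of CpG sites in DNA.

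On the mouse build mm9, which the count tables were made with, 8 members lay on chromosome 11 and 2 on chromosome 8 (GENCODE vM1). One chromosome 11 group held Ccl2 (chr11:81849073-81850955), Ccl7 (chr11:81859214-81861027) and Ccl12 (chr11:81915347-81916902), all on the plus strand. The other held Ccl5 (chr11:83339280-83344020), Ccl9 (chr11:83386421-83392138), Ccl6 (chr11:83401384-83406589) and Ccl3 (chr11:83461346-83462857) on the minus strand and Ccl4 (chr11:83476086-83478185) on the plus strand. Ccl22 (chr8:97269490-97275599) and Ccl17 (chr8:97334353-97335935) were 58.8 kb apart. Ccl9 and Ccl6 were separated by 9.24 kb, and Ccl2 and Ccl7 by 8.26 kb. An antisense gene overlapped Ccl6 (E230016K23Rik, at most 13 counts in a library) and another was annotated over Ccl2 (Gm17268, not among the symbols counted), so reads there could not be assigned by strand with certainty. Of the 50-base windows of the members' transcripts, 48 of 2989 in Ccl9 also occurred in other genes and none in the other members did.

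The promoters of 4 members are shown because their calls after KLA differed in direction: Ccl3 and Ccl9 rose in all 4 genotype groups, Ccl6 fell in both genotypes of the Tet cohort, and Ccl12 fell in TET iTKO cells. Each run is the 250 bases before the RefSeq start (GRCm38.p6 table), 5′ to 3′ on the gene's strand. On mm9 chromosomes 8 and 11, the only ones searched, each run matched exactly once, at the interval given. Capitals mark matches, on either strand, to the NF-κB consensus, AP-1 (TGANTCA), PU.1 (GAGGAA) or TATA box letters (TATAAA). The interferon-stimulated response element and the STAT6 motif were searched too.
Ccl9, chr11:83392139-83392388, minus strand: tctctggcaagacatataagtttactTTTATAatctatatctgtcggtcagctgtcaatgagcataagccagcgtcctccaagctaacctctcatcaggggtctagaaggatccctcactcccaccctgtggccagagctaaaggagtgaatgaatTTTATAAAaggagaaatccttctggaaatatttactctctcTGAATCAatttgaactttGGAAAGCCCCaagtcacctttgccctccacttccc
Ccl6, chr11:83406590-83406839, minus strand: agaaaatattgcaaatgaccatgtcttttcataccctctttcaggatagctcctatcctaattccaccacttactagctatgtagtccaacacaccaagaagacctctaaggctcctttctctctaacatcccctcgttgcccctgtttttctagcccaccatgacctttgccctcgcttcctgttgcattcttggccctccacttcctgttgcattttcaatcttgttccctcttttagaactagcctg
Ccl3, chr11:83462881-83463130, minus strand: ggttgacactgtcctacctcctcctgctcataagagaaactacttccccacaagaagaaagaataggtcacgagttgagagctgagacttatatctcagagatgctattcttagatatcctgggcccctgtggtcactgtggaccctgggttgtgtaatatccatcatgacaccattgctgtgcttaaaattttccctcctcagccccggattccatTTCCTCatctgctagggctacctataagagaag
Ccl12, chr11:81915097-81915346, plus strand: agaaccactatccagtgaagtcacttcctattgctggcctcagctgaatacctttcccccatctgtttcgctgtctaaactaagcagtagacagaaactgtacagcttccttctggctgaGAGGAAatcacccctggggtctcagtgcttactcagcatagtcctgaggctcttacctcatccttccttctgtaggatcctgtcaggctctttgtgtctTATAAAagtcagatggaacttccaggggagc

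Among the 6 members with an entry (the 4 above, Ccl17 and Ccl22), the NF-κB consensus occurred in Ccl9 only, 26 to 35 bases upstream of the start. It occurred in 3.75% of the 27025 promoters in the table. Ccl9 also held the AP-1 letters (6.87% of promoters) and the TATA letters on both strands in an overlapping run (13%, where Ccl12 held them too). PU.1 letters were in Ccl3, Ccl12 and Ccl17 (23.1%), and the STAT6 letters in Ccl17 alone (5.86%). Ccl6 and Ccl22 matched none of the motifs, which says only that these letters were not in that window. The windows held few CpG sites: 1 in Ccl12, 2 each in Ccl3, Ccl6 and Ccl9, 3 in Ccl17 and 6 in Ccl22, beside a median of 6 over all promoters. Ccl2, Ccl4, Ccl5 and Ccl7 had no entry. A match is a description of sequence, not of a bound site.

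Assigned counts ranged from 4982950 to 26657729 per library, and the lowest total was that of the 0 h WT library of replicate 2 in the Tdg cohort. The 10 members together took 0.222% to 0.697% of assigned counts in the 16 BMDM libraries and 0.000604% to 0.00179% in the 8 Th2 libraries. Stimulated BMDMs had a larger share than unstimulated BMDMs of the same group and replicate number in all 8 pairs, without a test. The 7 macrophage markers summed to 21400 to 28800 CPM (counts scaled to an equal library total) in every BMDM library, and T cell markers (6 genes) summed to 7.57 to 26.9 CPM there against 2100 to 2950 in Th2 cells. In Th2 cells 3 of the 7 macrophage markers had at least 10 counts and the list summed to 9.88 to 60.3 CPM, with Csf1r and Mertk at 0, and the 4 Th2 markers summed to 425 to 581 CPM. The KLA check genes Tnf, Il1b, Nfkbia and Cxcl10 rose in both genotypes of both cohorts (DESeq2 Wald test), which checked the stimulation labels.

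Per exon length (RPKM, CPM divided by the kilobases of exon), the order of the members in unstimulated WT cells was led by Ccl7 in the Tet cohort (1060 ± 67.2 RPKM, SD, n = 2). Ccl2 (566 ± 19) and Ccl5 (524 ± 109) followed and overlapped each other, then Ccl6 (358 ± 72.3), Ccl9 (206 ± 24.3), Ccl12 (136 ± 1.56), Ccl3 (126 ± 9.48) and Ccl4 (89.4 ± 2.38 RPKM). Ccl22 was near the bottom at 0.166 ± 0.121 RPKM, and Ccl17 was at 0. In the Tdg cohort Ccl5 led at 1245 ± 1340 RPKM, with a spread so wide that it overlapped Ccl7 at 862 ± 306, and Ccl4, Ccl3 and Ccl12 overlapped in turn. After KLA the order changed: Ccl5 (1110 ± 342 RPKM) and Ccl3 (961 ± 148) overlapped at the top of the stimulated WT cells of the Tet cohort, ahead of Ccl7 (756 ± 11.5). Ccl17 gave 1 count in 1 of the 16 BMDM libraries and 0 in the other 15, a level at which no difference was detectable.

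**Figure D1:**
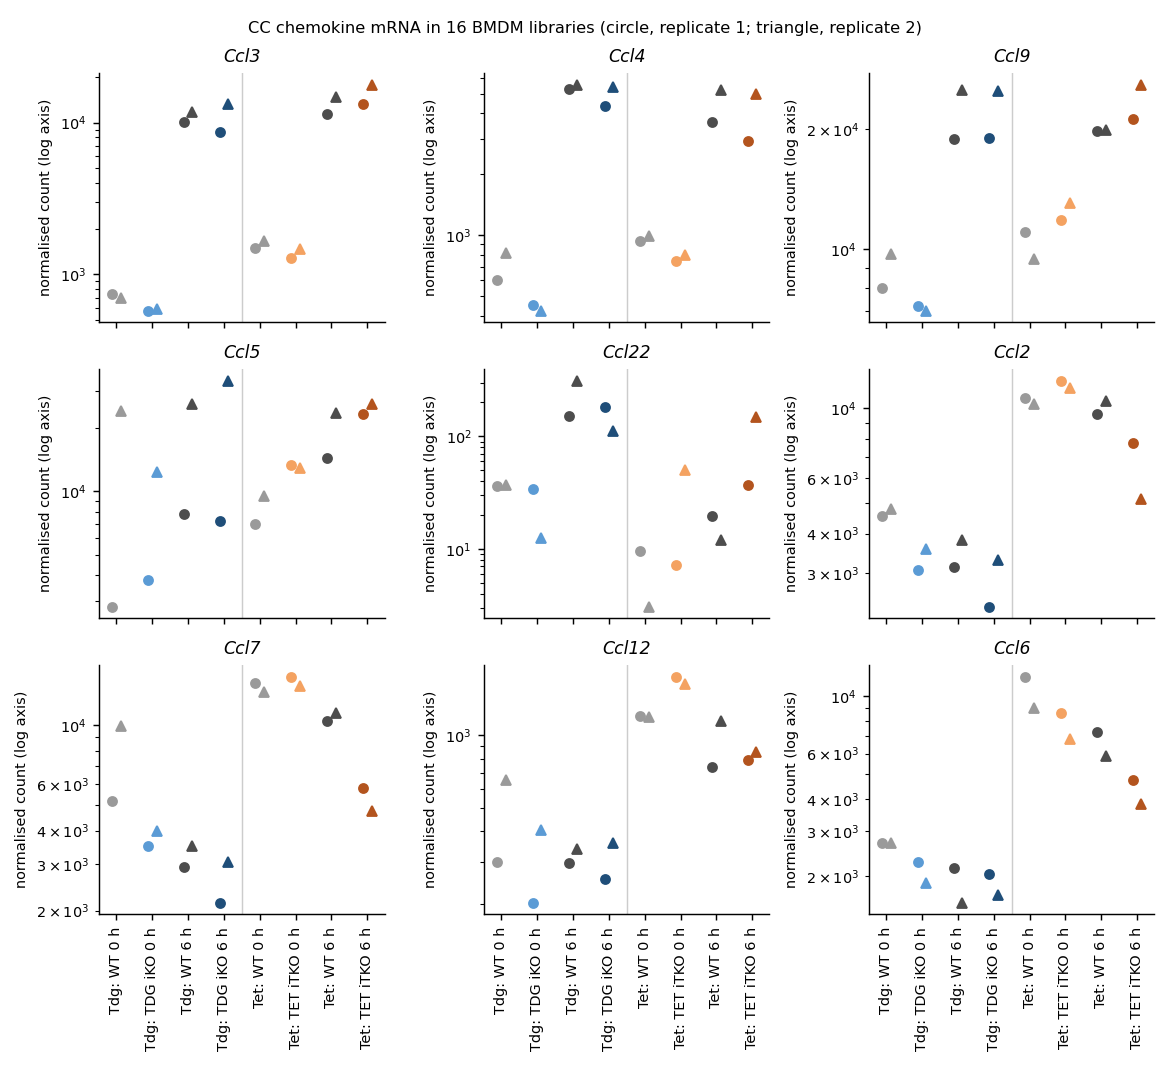
Normalised counts (DESeq2 size factors, log axis) of the 9 detected CC chemokines in 16 BMDM libraries, with each cohort scaled on its own, so levels are comparable only on the same side of the vertical line. Circles are replicate 1 and triangles replicate 2. Ccl3, Ccl4 and Ccl9 separate 0 h from 6 h in both cohorts, Ccl5 separates by replicate number in the Tdg cohort, and Ccl7 is lowest at 6 h in TET iTKO among the Tet cohort libraries.

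The first question was how KLA changed the members in WT cells. In the Tdg cohort 5 of the 9 members tested passed an adjusted p of 0.05 in DESeq2 (4 higher and 1 lower), where 8.6% of all genes tested did so (5.29% higher and 3.32% lower). In the Tet cohort 6 of 9 passed (4 higher and 2 lower), where 24.1% of all genes did (13.1% higher and 11.1% lower). The median log2 change of the tested members was 0.32 and 0.95 in turn, against −0.03 and −0.01 over all genes. Log2 fold changes below are given ± their standard error, with Benjamini-Hochberg adjusted p-values from DESeq2.

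Ccl3 and Ccl4, attractants of monocytes and T cells, rose the most steeply. Ccl3 had normalised counts of 736 and 699.5 in the 2 unstimulated WT libraries of the Tdg cohort and 10075 and 11781 after KLA (log2 fold change 3.93 ± 0.30, adjusted p = 4.89e-35). Every stimulated library stood far above every unstimulated one. Across the Tet cohort WT libraries Ccl3 went from 1486 and 1668 to 11384 and 14867 (log2 fold change 3.06 ± 0.15, adjusted p = 5.69e-86), an 8.32-fold difference. Ccl4 moved from 602 and 815 to 5297 and 5545 in the Tdg cohort (log2 fold change 2.94 ± 0.28, adjusted p = 1.62e-22) and from 942 and 987 to 3625 and 5220.1 in the Tet cohort (log2 fold change 2.20 ± 0.32, adjusted p = 1.95e-10), again with no overlap.

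Ccl5, a T cell attractant and a product of interferon-driven as well as NF-κB-driven transcription, rose in WT cells of the Tet cohort and missed the threshold in those of the Tdg cohort. In Tet cohort WT cells it was 6990.2 and 9481 at 0 h and 14462 and 23619.7 at 6 h (log2 fold change 1.21 ± 0.30, adjusted p = 0.000349). In Tdg cohort WT cells replicates 1 and 2 gave 2826 and 24159 at 0 h and 7781 and 25934 at 6 h (log2 fold change 0.32 ± 1.34, adjusted p = 0.924). Replicate 2 stood above replicate 1 in all 4 groups of this cohort, and the times overlapped. The instrument or day of each library is not given in the sources used here, so the replicate number could not be tied to a batch. Neutrophil and precursor markers split by the same number: the 6 of 7 in the tables, none of them at 0 throughout a group, summed to 159 to 500 CPM in the replicate 1 libraries and 25.1 to 37.1 in those of replicate 2. Mpo, a granule enzyme of neutrophil precursors, was at 46.8 (WT) and 157 (TDG iKO) CPM in replicate 1 and 6.02 and 14.8 in replicate 2 at 0 h. Their part in the Ccl5 values was not tested. A difference between the cohorts in the Ccl5 response was not tested.

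Ccl9, a CCR1 ligand that macrophages carry without stimulation, rose less but evenly. Its WT counts were 8027 and 9724 before and 18888 and 25035 after KLA in the Tdg cohort (log2 fold change 1.31 ± 0.29, adjusted p = 0.000213). The Tet cohort gave 11052 and 9435 before and 19773 and 19918 after (log2 fold change 0.95 ± 0.12, adjusted p = 7.14e-14). Ccl6, its neighbour and fellow CCR1 ligand, went the other way. Tet cohort WT cells held 11949.8 and 9046 normalised counts of Ccl6 at 0 h and 7275 and 5866 at 6 h (log2 fold change -0.68 ± 0.16, adjusted p = 0.000171). In Tdg cohort WT cells the Ccl6 values were 2697 and 2685 and then 2158 and 1573 (log2 fold change -0.53 ± 0.29, adjusted p = 0.292), which did not overlap but missed the threshold.

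The CCR2 ligands were already abundant at 0 h and none of them rose. Ccl7 fell in WT cells of the Tet cohort from 14429 and 13313 to 10385 and 11133 (log2 fold change -0.37 ± 0.12, adjusted p = 0.00869) and in those of the Tdg cohort from 5157 and 9913 to 2912 and 3508 (log2 fold change -1.23 ± 0.38, adjusted p = 0.0171). Ccl2, the best-known monocyte attractant among them, stayed near its starting level in the Tet cohort, at 10741 and 10338 before and 9593 and 10544 after (log2 fold change -0.07 ± 0.15, adjusted p = 0.836). Its Tdg cohort values were 4546 and 4807 and 3137 and 3833 (log2 fold change -0.42 ± 0.29, adjusted p = 0.433). Ccl12 gave 1194 and 1186 and then 735 and 1147 in Tet cohort WT cells (log2 fold change -0.34 ± 0.17, adjusted p = 0.155).

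Ccl22, the CCR4 ligand, was scarce. It rose in Tdg cohort WT cells from 36.1 and 36.8 to 153 and 313 normalised counts (log2 fold change 2.68 ± 0.60, adjusted p = 0.000261). In Tet cohort WT cells, where it started at 9.51 and 3.06 and reached 19.6 and 12.1, the change missed the threshold (log2 fold change 1.38 ± 0.87, adjusted p = 0.284). Calls that rested on single libraries were those of the Tdg cohort WT cells for Ccl22 (adjusted p = 0.15 without the 6 h library of replicate 2), Ccl9 (0.0995 without the same library) and Ccl7 (lost without any of 3 of the 4 libraries, up to 0.319), and those of the Tet cohort WT cells for Ccl6 (0.085 without the 0 h library of replicate 1) and Ccl7 (up to 0.192). Ccl3 and Ccl4 passed in every such fit of both cohorts.

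**Figure D2:**
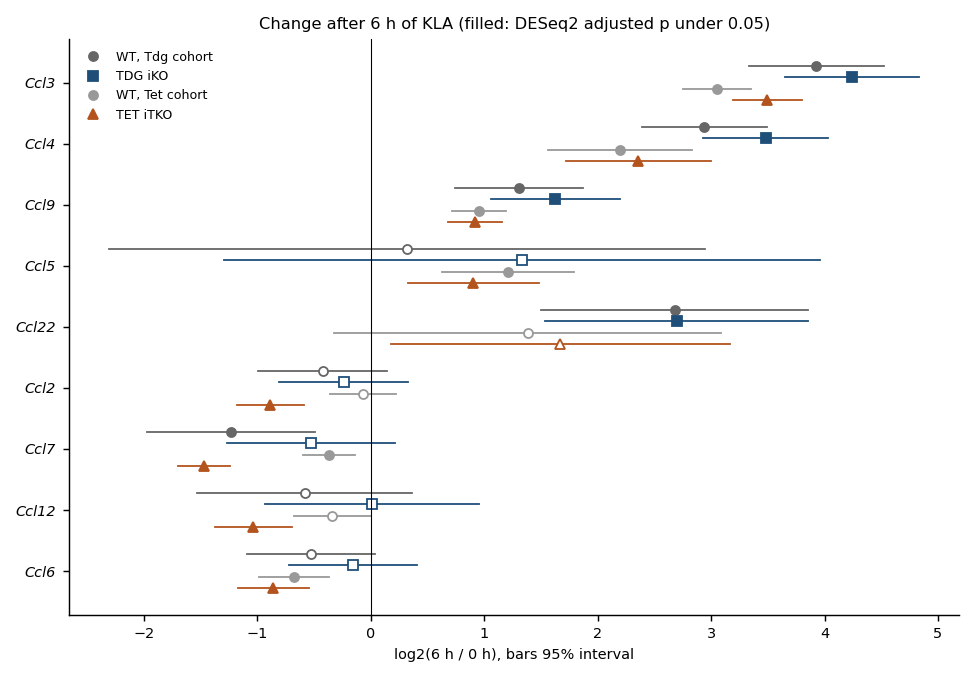
Log2 change of each CC chemokine after 6 h of KLA in the 4 genotype groups, with 95% intervals. Filled symbols passed an adjusted p of 0.05 in DESeq2. Ccl3, Ccl4 and Ccl9 lie to the right of 0 in all 4 groups, and the TET iTKO triangles of Ccl2, Ccl7, Ccl12 and Ccl6 lie to the left of 0.

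The next question was whether loss of TDG altered these genes. Neither at 0 h nor at 6 h did DESeq2 call any member, and it called 0.0% of all genes in either comparison. At an unadjusted p under 0.05 there were 2 members at 0 h (Ccl4 and Ccl7) and 0 at 6 h, beside 1.76% and 0.226% of all genes. The edgeR quasi-likelihood test also called 0 members at both times.

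Ccl7 had 3496 and 3978 normalised counts in TDG iKO cells and 5157 and 9913 in WT cells (log2 fold change -1.01 ± 0.38, adjusted p = 1, unadjusted p = 0.00729). The higher WT value, of replicate 2, came from the shallowest library. With that library as the only WT one at 0 h, assumed by the fit to vary like the other groups, Ccl7 (adjusted p = 0.00259) and Ccl4 (0.0297) passed in DESeq2, as did 1148 genes in all. Ccl4 gave 453 and 423 in TDG iKO cells against 602 and 815 in WT (log2 fold change -0.69 ± 0.28, adjusted p = 1). The 9 members other than Ccl17 all had log2 differences below 0, from -1.01 (Ccl7) to -0.30 (Ccl3). These values share the same 4 libraries and 0.0% of genes were called, so the common sign is given as a description. At 6 h the log2 differences of the 9 expressed members lay between -0.67 (Ccl22) and 0.28 (Ccl5).

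In TDG iKO cells KLA raised Ccl3, Ccl4, Ccl9 and Ccl22, 4 of 9 members tested, where 7.08% of all genes were called (4.27% higher). Ccl3 went from 572 and 591 to 8651 and 13361 (log2 fold change 4.24 ± 0.30, adjusted p = 1.17e-41) and Ccl4 from 453 and 423 to 4366 and 5419.8 (log2 fold change 3.48 ± 0.28, adjusted p = 4.27e-32). Ccl9 (7213 and 7017, then 19007 and 24916) and Ccl22 (33.9 and 12.4, then 182 and 112) separated by time as in WT. Ccl7 had 3496 and 3978 before and 2136 and 3058 after KLA (log2 fold change -0.52 ± 0.38, adjusted p = 0.684). Ccl5 again split by replicate number, at 3813 and 12412 at 0 h and 7263 and 33627 at 6 h for replicates 1 and 2 (log2 fold change 1.33 ± 1.34, adjusted p = 0.89). With the replicate number as a block in DESeq2, Ccl5 passed in these cells (log2 fold change 1.16, adjusted p = 0.00538) and not in WT cells (0.73, adjusted p = 0.124). In that fit the Ccl5 responses of the genotypes were not shown to differ (log2 difference 0.44 ± 0.47, unadjusted p = 0.349).

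The KLA responses of TDG iKO and WT cells were compared by an interaction term. DESeq2 called 0 members and 0.0% of genes, edgeR called 0 members, and 0 members had an unadjusted p under 0.05, beside 0.246% of genes. For Ccl3 the difference was 0.31 on the log2 scale (95% interval -0.52 to 1.15), for Ccl4 0.54 (-0.24 to 1.32) and for Ccl7 0.71 (-0.34 to 1.75). The interval for Ccl5 ran from -2.70 to 4.72.

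**Figure D3:**
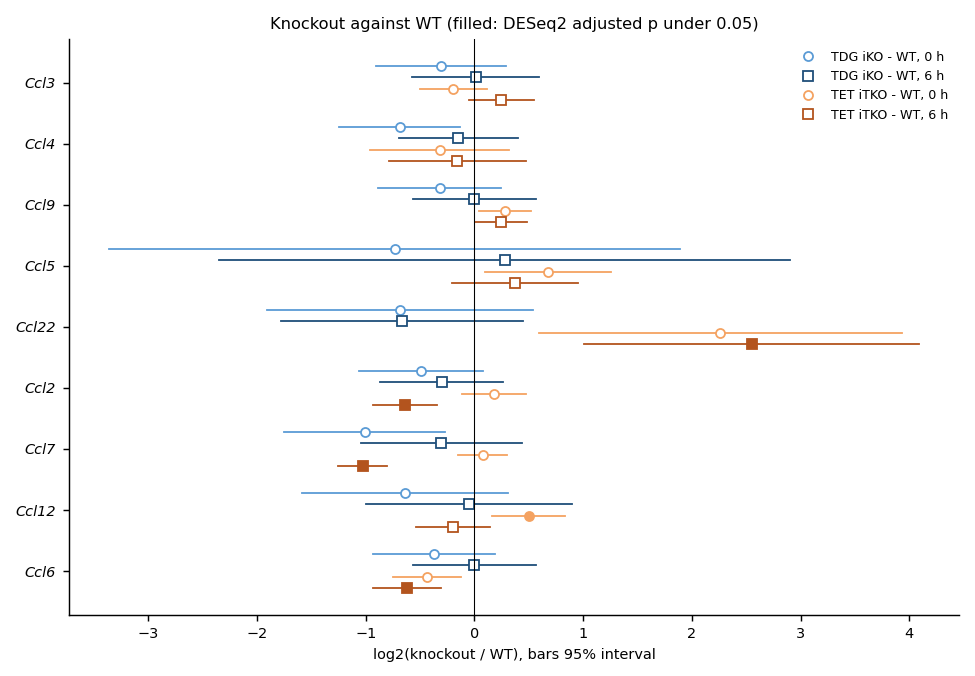
Log2 difference between knockout and WT BMDMs for each CC chemokine at 0 h and 6 h, with 95% intervals. Filled symbols passed an adjusted p of 0.05 in DESeq2. At 6 h TET iTKO values of Ccl2, Ccl7 and Ccl6 are below 0 and that of Ccl22 is above it, and all TDG iKO symbols are open.

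Loss of the 3 TET enzymes was examined in the Tet cohort. At 0 h DESeq2 called 1 of 9 members, where 7.72% of all genes were called (4.51% higher). This was Ccl12, a CCR2 ligand, at 1745 and 1623 normalised counts in TET iTKO cells and 1194 and 1186 in WT cells (log2 fold change 0.50 ± 0.17, adjusted p = 0.0478). The groups did not overlap, but the adjusted p rose to between 0.31 and 0.351 when any 1 of the 4 libraries was left out. The edgeR test called 5 members, adding Ccl5 and Ccl22 above WT and Ccl4 and Ccl6 below it, where edgeR called 10.9% of all genes.

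At 6 h 4 of 9 members differed, against 6.39% of all genes (3.14% higher and 3.26% lower): Ccl2, Ccl6 and Ccl7 were lower in TET iTKO cells and Ccl22 was higher. Ccl7 stood apart, with 5805 and 4749 normalised counts in TET iTKO and 10385 and 11133 in WT (log2 fold change -1.03 ± 0.12, adjusted p = 1.05e-15), a 2.04-fold lower level. It passed without any 1 of the 4 libraries (adjusted p at most 1.64e-09). Ccl2 had 7786 and 5145 in TET iTKO and 9593 and 10544 in WT (log2 fold change -0.64 ± 0.15, adjusted p = 0.000864), with the lower TET iTKO value in replicate 2. Without that library its adjusted p was 0.0795. Ccl6 gave 4725 and 3824 against 7275 and 5866 (log2 fold change -0.62 ± 0.16, adjusted p = 0.00318) and lost its call without either of 2 libraries (up to 0.239). In bulk RNA, fewer cells that make a transcript and less transcript per cell cannot be told apart.

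Ccl22 was scarce in the Tet cohort. At 0 h it gave 7.28 and 50.3 normalised counts in TET iTKO and 9.51 and 3.06 in WT (log2 fold change 2.26 ± 0.85, adjusted p = 0.0857), with overlap. At 6 h the values were 36.8 and 149 and 19.6 and 12.1 (log2 fold change 2.55 ± 0.79, adjusted p = 0.0238), with no overlap. The higher TET iTKO value was that of replicate 2 at both times, and without its 6 h library the log2 difference was 1.21 with an adjusted p of 0.844. The call was also lost without either WT library (0.0961 and 0.216). These levels rested on 6 to 171 counts per TET iTKO library and 4 to 19 per WT library.

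Marker lists of other cells also differed between the Tet cohort genotypes. The 6 dendritic cell markers summed to 1.65 to 4.66 CPM in the 4 TET iTKO libraries and 0.357 to 0.465 in the 4 WT libraries, with Cd209a at 0 in all 8. Ccr7, one of these markers, reached 3.51 and 4.04 CPM in TET iTKO replicate 2, the replicate that was high in Ccl22, and 0.609 and 0.925 in replicate 1. Zbtb46 went the other way, at 0 and 0.0512 CPM in TET iTKO replicate 2 and 0.609 and 0.33 in replicate 1. Flt3 was at 0.977 and 0.409 CPM in replicate 2 and 0.532 and 0.33 in replicate 1. Xcr1 and Siglech were at most 0.172 CPM in TET iTKO. Of 7 neutrophil and precursor markers, 6 were in the tables and summed to 68.8 to 146 CPM in TET iTKO and 29.5 to 53.9 in WT. The 7 macrophage markers summed to 21700 to 23100 in TET iTKO and 25500 to 27300 in WT. Fibroblast markers (3 genes) were 31.3 to 61.3 CPM against 10.4 to 20.3, and B cell markers (4 genes) 3.83 to 21.8 against 1.49 to 2.36. The part of these cells in the Ccl22, Ccl2, Ccl6 and Ccl7 differences was not tested.

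KLA changed 8 of 9 members in TET iTKO cells (4 higher and 4 lower), where 22.3% of all genes were called (11.7% higher and 10.6% lower). Among the genes that rose, Ccl3 went from 1283 and 1476 to 13307 and 17856 (log2 fold change 3.50 ± 0.15, adjusted p = 2.88e-111), Ccl4 from 745 and 799 to 2929 and 4993 (log2 fold change 2.36 ± 0.32, adjusted p = 7.65e-12) and Ccl5 from 13411 and 12912 to 23252 and 26031 (log2 fold change 0.90 ± 0.30, adjusted p = 0.0128). Ccl9 rose from 11814 and 13089.5 to 21205 and 25835 (log2 fold change 0.92 ± 0.12, adjusted p = 7.88e-13). The call for Ccl5 was lost without any 1 of the 4 libraries (adjusted p 0.0808 to 0.182), with a log2 change of 0.82 to 0.98.

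The CCR2 ligands and Ccl6 fell together in TET iTKO cells. Ccl7 dropped from 15208 and 14023 to 5805 and 4749 (log2 fold change -1.47 ± 0.12, adjusted p = 1.23e-34). Ccl2 went from 12242 and 11617 to 7786 and 5145 (log2 fold change -0.88 ± 0.15, adjusted p = 5.22e-08), and Ccl12 from 1745 and 1623 to 787 and 854 (log2 fold change -1.04 ± 0.17, adjusted p = 3.55e-08). Each stimulated library was below each unstimulated one for these 3 genes. Ccl6 declined from 8653 and 6837 to 4725 and 3824 (log2 fold change -0.86 ± 0.16, adjusted p = 9.21e-07). Ccl22 missed the threshold without pairing (log2 fold change 1.67 ± 0.76, adjusted p = 0.107). The 0 h and 6 h libraries of each Tet cohort replicate carried a shared identification number, read here as the animal, and with that pairing as a block Ccl22 passed (log2 fold change 1.87, adjusted p = 0.0139).

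The difference between the KLA responses of TET iTKO and WT cells was tested as an interaction, and 2 of 9 members passed where 0.436% of all genes did (0.386% with a difference below 0). Ccl7 fell by a further 1.10 on the log2 scale in TET iTKO cells (95% interval -1.43 to -0.78, adjusted p = 7.19e-08). Its 0 h counts overlapped between genotypes (15208 and 14023 in TET iTKO, 14429 and 13313 in WT), and the 6 h counts did not. The call held in the paired fit (adjusted p = 8.57e-18) and without any 1 of the 8 libraries (at most 0.000467).

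Ccl2 also passed (log2 difference -0.82, 95% interval -1.23 to -0.40, adjusted p = 0.0308), falling from 12242 and 11617 to 7786 and 5145 in TET iTKO while WT went from 10741 and 10338 to 9593 and 10544. With the libraries paired by their shared identification number, the Ccl2 difference was −0.85 with an adjusted p of 0.0708 in DESeq2. With each library left out in turn the Ccl2 call did not always hold, and its log2 difference ran from −1.15 to −0.56. Ccl3 passed only in the paired fit (log2 difference 0.44, adjusted p = 0.0275, against 1 without pairing), with a steeper rise in TET iTKO. Ccl12 had a difference of -0.70 (95% interval -1.18 to -0.22, adjusted p = 0.37), and its WT libraries at 6 h were apart at 735 and 1147. All 3 CCR2 ligands had differences below 0, Ccl3 and Ccl4 had them above 0 and Ccl5 below it, and Ccl9 was at -0.04 (-0.37 to 0.30).

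**Figure D4:**
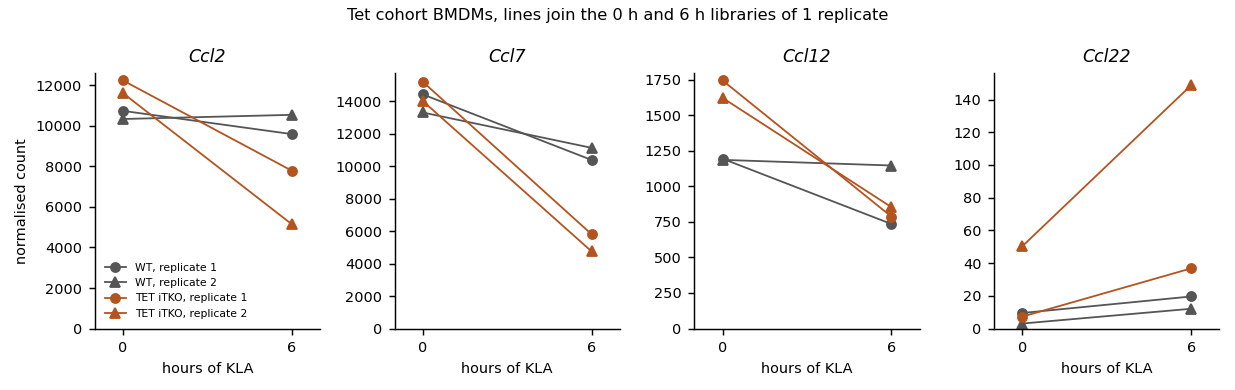
Normalised counts of Ccl2, Ccl7, Ccl12 and Ccl22 at 0 h and 6 h of KLA in the 8 libraries of the Tet cohort, each line joining the libraries of 1 replicate. For Ccl7 both TET iTKO lines end below both WT lines at 6 h, and for Ccl22 TET iTKO replicate 2 lies above the other 3 lines.

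The TET and TDG effects were set against each other with all 16 BMDM libraries in 1 model, each effect being measured from the WT of its cohort. DESeq2 and edgeR called 0 members at either time, and DESeq2 called 0.328% of all genes at 0 h and 0.0658% at 6 h. At an unadjusted p under 0.05 there were 5 members at 0 h (Ccl2, Ccl7, Ccl9, Ccl12 and Ccl22, beside 6.4% of genes) and 1 at 6 h (Ccl22, beside 3.09%). Ccl7 differed by 1.09 at 0 h (95% interval 0.30 to 1.89) and -0.71 at 6 h (-1.51 to 0.09). Ccl22 differed by 2.93 (0.54 to 5.32) and 3.23 (0.99 to 5.47). The lower Ccl7 level of TET iTKO cells at 6 h was therefore not shown to differ from the TDG effect at that time.

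The receptors for these ligands were measured in the same cells as a list of 15 CC receptors. In TET iTKO cells at 0 h 5 of the 9 tested were higher and 0 lower, where 4.51% of all genes were higher, and at 6 h 3 of 9 were higher and 0 lower, where 3.14% of all genes were higher. Ccr2, the receptor of Ccl2, Ccl7 and Ccl12, gave 695 and 1564 normalised counts in TET iTKO and 210.4 and 197 in WT at 0 h (log2 fold change 2.47 ± 0.63, adjusted p = 0.00273). Ccr1, which binds Ccl3, Ccl5, Ccl6 and Ccl9, stood at 531 and 769 against 179 and 215 (log2 fold change 1.72 ± 0.23, adjusted p = 1.72e-11). Without TET iTKO replicate 2, the replicate high in Ccl22, Ccr2 lost its call at 0 h (adjusted p = 0.251) and at 6 h (0.214). In TDG iKO cells 0 of 12 receptors were called at either time.

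KLA also changed receptors. In Tet cohort WT cells Ccrl2, a receptor-like protein that presents chemoattractant without signalling, rose from 148 and 277 to 1583 and 3219 (log2 fold change 3.49 ± 0.47, adjusted p = 3.16e-12). In the Tdg cohort WT cells 1 of 8 receptors rose (Ccrl2, 3.96 on the log2 scale) and 3 fell (Ccr1, Ccr2 and Ccr3), beside 5.29% higher and 3.32% lower over all genes. With single libraries left out, the log2 change ran from -1.74 to -1.245 for Ccr2 and from -1.64 to -0.97 for Ccr1. The Ccr2 call was lost in every such fit and the Ccr1 call in some of them. Of 14 further CC chemokines, 2 to 5 had enough counts to be tested in the BMDM comparisons and 0 were called in any of them by DESeq2. Among these Ccl8, which lies in the Ccl2 group of genes, was at 241 ± 28.1 CPM in stimulated and 282 ± 11.9 in unstimulated WT cells of the Tet cohort (SD, n = 2).

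Some genes followed the members closely over the 16 BMDM libraries, by Pearson's r of log2 normalised counts plus 1 among genes with a mean of at least 50. The libraries fall into stimulated and unstimulated groups and into 2 cohorts, and r, which covers all of them at once, is given as a description. Ccl3 was most like Tnf (r = 0.995), Gpd2 (0.993) and Icam1 (0.992). Ccl7 was most like another member, Ccl2 (r = 0.915), and Ccl5 was most like Zbp1 (0.969), Ms4a6c (0.968) and Xaf1 (0.963). Of the 36 member pairs, Ccl3 with Ccl4 had the highest r (0.965) and Ccl6 with Ccl22 the lowest (−0.819), and the neighbours Ccl6 and Ccl9 had an r of −0.632.

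In Th2 cells these genes were almost silent. Replicates 3 and 4 of each genotype differed little beyond counting noise (mean chi-square 1.34 and 1.51 per gene, against at least 21.3 for other pairs) and were counted as 1 sample. Ccl5 was the one member clearly present, at 37 to 454 raw counts in the 4 WT libraries and 67 to 194 in the 4 TDG iKO libraries. The 5 CD8 T and NK cell markers summed to 98.4 to 206 CPM in the Th2 libraries, 3 with at least 10 counts in a library and Ncr1 at 0. Their part in the Ccl5 values was not tested. Ccl4 had 2 to 14 counts in every Th2 library. Ccl22 had 23 counts in TDG iKO replicate 1 and 0 to 6 in each of the other 7 libraries. Ccl2, Ccl6 and Ccl12 had 0 counts in all 8, and Ccl3, Ccl7, Ccl9 and Ccl17 at most 3 in any library.

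TDG iKO and WT Th2 cells were compared with 3 samples each. DESeq2 and edgeR called 0 members and DESeq2 called 0.0% of genes, with 0 of the 7 members tested and 0.487% of genes at an unadjusted p under 0.05. Ccl5 differed by 0.17 on the log2 scale (95% interval -0.82 to 1.17), which does not show that the genotypes act alike.

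Against unstimulated WT BMDMs, 9 of 9 tested members were lower in WT Th2 cells, where 55.9% of all genes differed between these cell types (25.9% lower in Th2 cells). The 3 counts that a zero allows, over all 4 WT Th2 libraries, put Ccl9 at least 15200-fold, Ccl2 at least 11300-fold, Ccl6 at least 9330-fold and Ccl12 at least 1210-fold higher in BMDMs. Ccl7, with 1 count in Th2 cells, had a ratio of 48200 (exact Poisson interval 8650 to 1900000). Ccl3 was 1280 times (501 to 4710) and Ccl4 122 times (86.4 to 178) higher in BMDMs. Ccl5 was 62.8 times higher (58.7 to 67.2) by the same ratio, mean BMDM CPM over the CPM of the summed WT Th2 counts. Its 4 unstimulated WT BMDM libraries, however, ranged from 283 to 2107 CPM. The DESeq2 fit put Ccl5 113-fold higher in BMDMs (log2 Th2 minus BMDM −6.82, and −7.54 to −5.76 with each library left out in turn). Ccl22 was 8.49 times higher (5.06 to 15.5) in BMDMs, a mean over cohorts that differed. Tdg cohort replicates 1 and 2 had 3.62 and 3.21 CPM of Ccl22, and those of the Tet cohort 0.58 and 0.19. The lowest of these was below WT Th2 replicates 2, 3 and 4 (0.393, 0.254 and 0.225 CPM) and above replicate 1 (0). The Ccl22 call was lost without the Tet cohort 0 h WT library of replicate 1 (adjusted p = 0.0561). Intervals cover counting error only. Ccl17 had 7 counts in WT Th2 cells and 0 in the unstimulated WT BMDMs. Th2 cells carried the receptor of Ccl17 and Ccl22: Ccr4 was at 175 to 238 CPM in the 4 WT libraries and Ccr8, a second Th2 receptor, at 87.6 to 148.

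**Figure D5:**
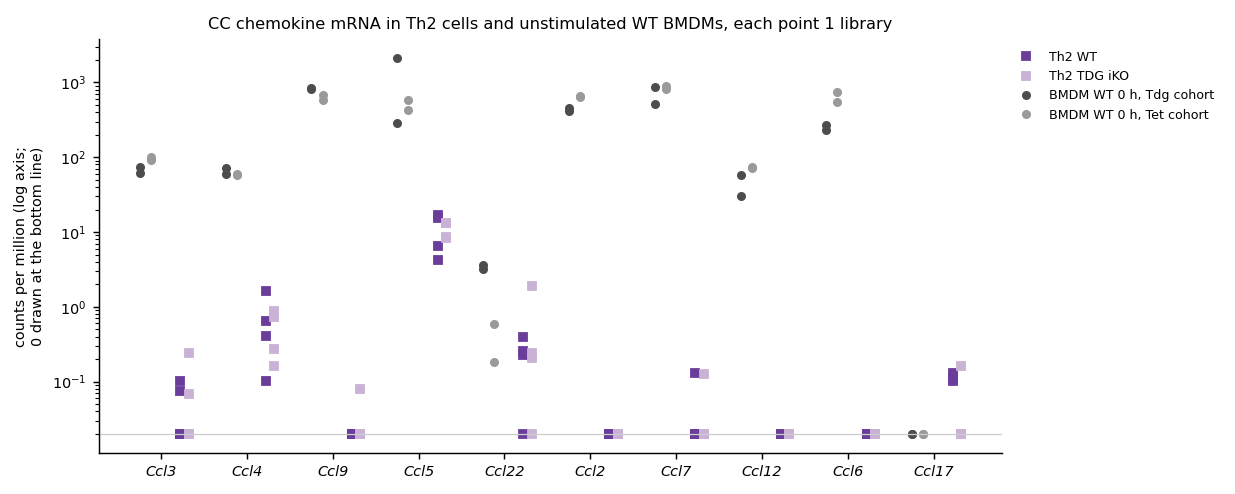
CPM (log axis) of the 10 CC chemokines in unstimulated WT BMDMs (circles) and in Th2 cells (squares), each point being 1 library and 0 drawn at the bottom line. Ccl5 is the highest of the 10 in Th2 cells, and the points of the 2 cell types overlap for Ccl22 and are all low for Ccl17.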

How the data were processed

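Poly(A) RNA from 16 BMDM and 8 Th2 libraries was sequenced as directional paired-end reads. The authors aligned reads to mm9 with HISAT2 and counted them per gene with HTSeq, and the deposited values are raw counts per gene symbol. Versions of both tools, the annotation and the strand setting are not given in the sources used here. The authors ran DESeq2 1.30.0, and their test results were not used here. The 5 tallies of unassigned reads, 32.8% to 51.6% of listed reads, were left out of library sizes.

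Each BMDM cohort and the Th2 cells were fitted separately across all genes with the DESeq2 1.42.0 Wald test (R 4.3.3, adjusted p under 0.05), so normalised counts are not comparable between cohorts. The TET minus TDG and the Th2 against BMDM comparisons had fits of their own. Alternatives were edgeR 4.0.16 (quasi-likelihood), TMM factors, a filter of 10 counts in 2 libraries, replicate blocks, fits of only the libraries compared, and leaving out each library (a group left with 1 library is assumed to vary like the others). Th2 replicates 3 and 4 were summed. The 10 members were named in every comparison, and other chemokines and receptors by the 3 largest changes among calls with a mean of at least 50 normalised counts. One receptor is not reported here. Members and lists were chosen with earlier results of these data known. RPKM used exon lengths of GENCODE vM1. Intervals and limits from counts cover counting error only.

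Whether replicate numbers pair samples was checked from deviations from group means across genes. In Th2 cells, same-numbered TDG iKO and WT samples had correlations of 0.51, 0.733 and 0.919. Replicates 1 and 2 were closer to each other (mean chi-square 21.3 in TDG iKO and 41.7 in WT) than to replicates 3 and 4 (106 to 218). No correlation was computed for differently numbered samples, so these values do not show that the numbers pair samples. With the replicate block DESeq2 called 13 genes and 0 members. In the Tet cohort the 0 h and 6 h libraries of a replicate share an identification number in their names (correlations 0.391 in TET iTKO and 0.505 in WT). In simulated counts, 200 genes with a mean of at least 50 normalised counts were given a log2 change of 2. DESeq2 found 83.5% for TDG iKO against WT in BMDMs at 0 h (15026 genes, 17.7% of calls false), 98% for TET iTKO against WT at 0 h (15028 genes, 5.77% false) and 97% for Th2 cells (15898 genes, 21.5% false). With edgeR 34.8%, 20.7% and 4.92% of calls were false in turn. All groups were drawn from 1 mean per gene. Scarcer genes, such as Ccl22 in the Tet cohort and most members in Th2 cells, were not covered.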

Additional observations from a re-analysis of the deposited data

Results flagged for a closer look

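The KLA responses of Ccl7 and Ccl2 differed between TET iTKO and WT BMDMs by the interaction term, with log2 differences of −1.10 (Ccl7) and −0.82 (Ccl2) in DESeq2. With the 0 h and 6 h libraries paired by identification number, Ccl7 passed in DESeq2 (adjusted p = 8.57e-18) and Ccl2 did not (0.0708). With each library left out in turn, the Ccl2 log2 difference ran from −1.15 to −0.56 and its call did not always hold. Ccr1, a receptor of Ccl3, Ccl5, Ccl6 and Ccl9, differed between the TET and TDG effects at 0 h by 1.45 on the log2 scale (adjusted p = 0.0321 in DESeq2). The Ccr1 call was lost with edgeR (0.228), with TMM factors (0.0507) and without any of 6 of the 8 libraries.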

How the results depend on the processing

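With 2 libraries per BMDM group, 1 library could decide a call. For TET iTKO against WT at 0 h the 1 member called became 5 with edgeR, 2 with the replicate block and 2 in a fit of only the libraries compared. All genes called went from 920 to 1637, 1036 and 1081 in turn. For the TET minus TDG difference at 0 h the replicate block gave 1 member in place of 0 (Ccl7, adjusted p = 0.0167). With each library left out, which left 1 library in a BMDM group, the members called and all genes called both changed in number. This held for TDG iKO at 0 h, for KLA in WT of each cohort and for TET iTKO at 0 h and 6 h. It also held for the TET iTKO difference in KLA response and for TET minus TDG at 0 h. The cause was not tested. Ccl5 changed sign with single libraries left out, ranging on the log2 scale from −0.15 to 2.42 for KLA in TDG iKO, −0.79 to 2.58 for KLA in WT of the Tdg cohort, −1.81 to 1.54 for TDG iKO at 0 h, −1.21 to 1.40 at 6 h and −0.14 to 0.91 in Th2 cells (−0.020 without the summed TDG iKO replicates 3 and 4, 0.26 without TDG iKO replicate 1).

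Outside the Tet cohort 0 h and 6 h pairs, which share an identification number, no source used here says what the replicate number marks. In the Tdg cohort same-numbered libraries had correlations of 0.313 (TDG iKO and WT, 0 h), 0.822 (6 h), 0.823 (TDG iKO, 0 h and 6 h) and 0.361 (WT). Between Tet cohort genotypes they were 0.0175 at 0 h and 0.065 at 6 h. With 2 replicates per group the deviations mirror each other, so each correlation is 1 value shared by both replicates. In the Tdg cohort the replicate block raised all genes called from 0 to 4 for TDG iKO at 0 h, from 1001 to 1809 for KLA in WT and from 824 to 1375 for KLA in TDG iKO, where it added Ccl5 (adjusted p = 0.00538). In the Tet cohort it added Ccl6 at 0 h and ended the Ccl22 call at 6 h (0.0528). It changed all genes called from 52 to 91 for the difference in KLA response (231 nested in genotype), from 37 to 170 for TET minus TDG at 0 h and from 9 to 101 at 6 h. With edgeR the genes called went from 920 to 1637 for TET iTKO at 0 h, 762 to 1407 at 6 h, 52 to 270 for the difference in KLA response and 9 to 1 for TET minus TDG at 6 h. Th2 genes called went from 0 to 2 with replicates 3 and 4 apart, 89 with the block added and 46 with replicates 1 and 2 alone. For Th2 cells against BMDMs the median log2 difference of all genes was 0.16, and 0.05 with TMM factors, and the 9 members stayed lower.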
